A study of Rattus norvegicus with 18 samples.

Results

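The mitosis and spindle genes described here are 42 genes picked by symbol for their roles in cell division. Of these, Ccnb2 and Nek2 are not analysed here. The other 40 are among the 28695 genes of the count tables, and all 40 were among the 11503 genes with enough counts to be tested. The rule used the symbols alone, but the members were chosen with earlier results of these data known. The data are RNA-seq of rat pXEN cells, called rat XENP in the labels and known as extraembryonic endoderm precursor cells, in 6 groups of 3 libraries.

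Extraembryonic endoderm lines the blastocyst cavity and later contributes to the yolk sac. Cells enter mitosis when cyclins A and B activate the kinase Cdk1, after which the Polo and Aurora kinases build the spindle and kinetochores attach chromosomes to it. The spindle checkpoint holds back the anaphase-promoting complex (APC/C), a ubiquitin ligase, until every chromosome is attached. Cdc20 then activates the ligase, securin and cyclin B are destroyed, and the midzone and cytokinesis proteins part the daughter cells. Many of these genes are transcribed together in G2 and M phase. In mammalian cells the factors known for this are B-Myb (Mybl2) with the MuvB complex and Foxm1, which act through a promoter element called CHR, often beside CCAAT boxes bound by NF-Y. In resting cells the DREAM complex represses the same promoters.

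The CHIR99021-vacuolated cells were grown in routine medium with the GSK3 inhibitor CHIR99021 at 0.5 µM (passages 37, 41 and 51). The sorted CHIR99021-vacuolated cells had the same dose and a sort, whose gate is not given in the sources used here (passages 35, 38 and 49). BCS-vacuolated cells had 14% BCS, which the labels do not spell out (passages 41, 32 and 42). Serum vesicles were labelled as grown with CHIR99021 and serum, at a dose the labels leave unclear (passages 32, 35 and 49). Serum-free vesicles were taken to be those in N2B27 medium with 3 µM CHIR99021 and 10 ng/ml murine LIF, without feeder cells (passages 32, 35 and 42). Normal cells were in routine medium without either addition (passages 37, 40 and 51). All 6 groups were labelled as female cells derived from WKY rat blastocysts, and the labels name no mutation or transgene. The labels say that the 3 samples of a group were prepared independently but not whether they were separate derivations, so p-values measure the spread between these samples, which may be technical.

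Libraries held 4050722 to 12074939 strand-specific counts, of which a pair of very abundant genes took 37.6 to 61.1%. Levels below are CPM, a gene's count relative to the total of its library, scaled by TMM, a factor that makes libraries comparable over the bulk of their genes. CPM is not adjusted for transcript length, so levels are compared between groups and not between genes. Genes were tested with edgeR's quasi-likelihood test on counts of all 18 libraries, and a gene that passed had a Benjamini-Hochberg adjusted p below 0.05 over all 11503 genes. All 12 markers of extraembryonic endoderm had counts in every group. Of the 9 fibroblast markers 3 to 5 had counts in each group, while Postn and Dcn were at 0 in every group. Of the 7 trophoblast markers 3 to 5 had counts in each group. Hand1 and Prl3d1 were at 0 in every group. Cdx2 had counts in every group except BCS-vacuolated and normal cells, and its levels in the vesicles are given below. In CHIR99021-vacuolated and sorted cells no trophoblast marker averaged above 5 CPM.

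The promoters of these genes are shown first because the members share promoter letters that the choice of genes did not use. RefSeq windows on the rat assembly GRCr8, from 250 bases before to 50 bases after the gene start, were found for 33 of the 40 members. The windows of Ccna2, Ube2c, Tpx2, Aurkb, Racgap1, Foxm1 and Incenp were not analysed here. The CHR letters searched were TTTGAA and TTCGAA, and the CCAAT box was searched as CCAAT, both on either strand. A CHR below is a match to TTTGAA or TTCGAA, and other letters for the element were not searched. A CHR was present in 25 of the 33 windows (75.8%), against 19.5% of all 27457 windows and 13.5% of the 8520 windows of genes tested here. At least 1 CCAAT was present in 72.7% of the members' windows, against 37.7% of all windows, and at least 2 in 54.5%, against 11.5%. Both elements stood in 60.6% of the members' windows, against 7.83% of all windows.

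The 5 windows below belong to Ccnb1 (cyclin B1) and Cdk1, which fell in both kinds of vesicle, Cdc20 (the APC/C activator), which rose in all 3 kinds of vacuolated cell, Top2a (topoisomerase II alpha), which rose in both kinds of vesicle, and Pttg1 (securin), which rose in sorted cells. Capitals mark CHR and CCAAT letters on either strand, so a CCAAT box on the other strand reads ATTGG. The Ccnb1 window (GRCr8 chr2:33655176-33655475, reverse strand) holds 2 CCAAT boxes, 82 and 50 bases before the start, and no match to the CHR letters searched. The Cdk1 window (chr20:19265043-19265342, forward strand) holds 3 CCAAT boxes and 2 CHR, the nearest CHR 16 bases before the start. The Cdc20 window (chr5:137255750-137256049, reverse strand) holds 2 CCAAT boxes with a CHR between them, 51 bases before the start. The Top2a window (chr10:84473044-84473343, reverse strand) holds 4 CCAAT boxes and 2 CHR, and the Pttg1 window (chr10:28406277-28406576, reverse strand) holds 3 CCAAT boxes and 1 CHR.
Ccnb1: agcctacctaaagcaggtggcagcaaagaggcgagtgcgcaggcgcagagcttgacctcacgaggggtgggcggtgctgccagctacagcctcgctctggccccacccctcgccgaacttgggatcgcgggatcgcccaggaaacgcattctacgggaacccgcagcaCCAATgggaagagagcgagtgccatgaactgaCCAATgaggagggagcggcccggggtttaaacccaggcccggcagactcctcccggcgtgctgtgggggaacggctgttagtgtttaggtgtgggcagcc
Cdk1: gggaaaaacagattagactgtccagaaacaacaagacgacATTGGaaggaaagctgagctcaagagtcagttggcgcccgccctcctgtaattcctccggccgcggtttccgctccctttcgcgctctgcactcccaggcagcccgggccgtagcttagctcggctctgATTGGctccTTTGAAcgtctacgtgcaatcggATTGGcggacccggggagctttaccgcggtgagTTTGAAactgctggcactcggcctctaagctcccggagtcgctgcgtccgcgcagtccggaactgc
Cdc20: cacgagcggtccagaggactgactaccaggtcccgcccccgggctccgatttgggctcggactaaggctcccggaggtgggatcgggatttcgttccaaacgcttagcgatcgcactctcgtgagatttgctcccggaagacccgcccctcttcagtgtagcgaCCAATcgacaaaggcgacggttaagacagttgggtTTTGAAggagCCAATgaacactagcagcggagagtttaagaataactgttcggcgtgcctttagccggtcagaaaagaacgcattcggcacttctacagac
Top2a: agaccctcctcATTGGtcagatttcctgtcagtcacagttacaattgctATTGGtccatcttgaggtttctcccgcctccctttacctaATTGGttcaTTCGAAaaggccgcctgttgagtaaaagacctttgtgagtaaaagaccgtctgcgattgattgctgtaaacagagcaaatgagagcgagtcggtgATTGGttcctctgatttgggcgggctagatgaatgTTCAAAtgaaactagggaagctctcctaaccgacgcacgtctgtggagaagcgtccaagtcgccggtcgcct
Pttg1: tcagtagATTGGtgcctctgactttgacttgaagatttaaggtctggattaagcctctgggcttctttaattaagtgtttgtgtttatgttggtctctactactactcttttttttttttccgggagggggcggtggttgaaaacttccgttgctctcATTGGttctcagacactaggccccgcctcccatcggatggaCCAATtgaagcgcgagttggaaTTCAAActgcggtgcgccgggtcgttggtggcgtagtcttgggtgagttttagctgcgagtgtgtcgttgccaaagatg
TTTGAA or TTCGAA stood in 17 of the 25 windows of members that were lower in serum vesicles than in normal cells, and in 8 of the 8 windows of members that were not. Other CHR letters were not searched, so these counts cannot show which members lack a CHR. A letter match is a description of these windows and not a bound site.

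The summed level of the 40 members separated the vesicles from every other group. It was 3169, 3129 and 3095 CPM in CHIR99021-vacuolated cells, 3595, 3361 and 3373 CPM in sorted cells, and 3313, 2846 and 3538 CPM in BCS-vacuolated cells. In serum vesicles it was 1543, 1756 and 1503 CPM, and in serum-free vesicles 1973, 1864 and 1909 CPM, against 3019, 3102 and 3141 CPM in normal cells. All 6 vesicle libraries lay below all 12 others, and the serum-free vesicle libraries lay above the serum vesicle libraries. With library sizes taken without the 2 most abundant genes the vesicle libraries still lay below the others, but the sums were 3928, 3564 and 3645 in serum-free vesicles, against 3376, 3711 and 3402 in serum vesicles, and these overlapped. The lowest vacuolated library was the BCS replicate of passage 32. From bulk RNA, fewer dividing cells and less of these transcripts per cell cannot be told apart.

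**Figure D1:**
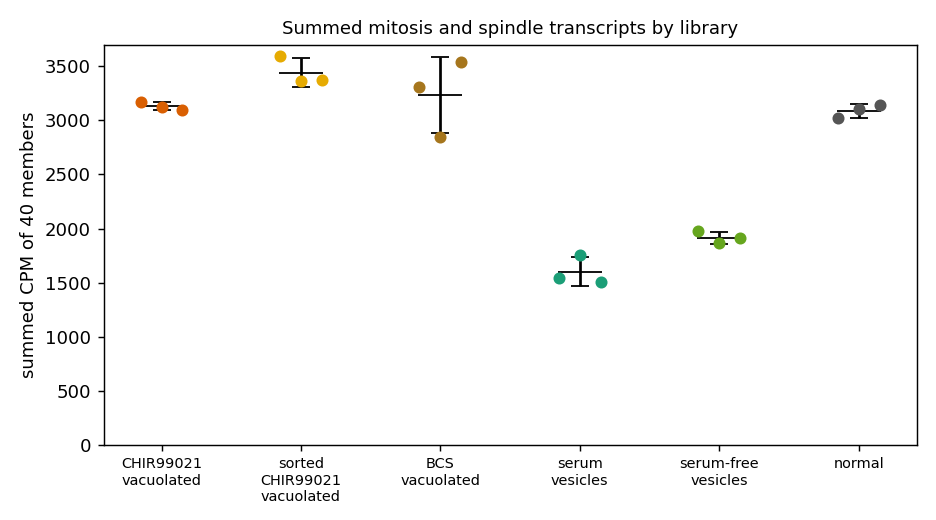
Summed CPM of the 40 members in each library (points), with the mean and SD of the 3 libraries of each group (bars). The 6 vesicle libraries lie between 1503 and 1973 CPM, below all vacuolated and normal libraries.

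In serum vesicles, 31 of the 40 members were lower than in normal cells, where 28.8% of all tested genes were lower, and 2 were higher, where 31.7% of all genes were higher. In either direction 60.4% of all genes passed. Their median log2 fold change was -0.94, against 0.064 over all genes. In serum-free vesicles, 26 members were lower (27.5% of all genes) and 2 higher (30.2% of all genes, and 57.7% in either direction), with a median of -0.85 against 0.035 over all genes. The libraries of 30 members lay wholly below the normal libraries in serum vesicles (30.6% of all genes), and those of 29 members did so in serum-free vesicles (30.1% of all genes). Both comparisons share the 3 normal libraries. With library sizes taken without the 2 most abundant genes, the median of all genes in serum vesicles moved to 0.18 and that of the members to -0.82.

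Other measures differed between vesicles and normal cells as well. Mitochondrial transcripts made up 7.91 to 9.31% of counts outside the 2 most abundant genes in serum vesicles, while serum-free vesicles had 7.11 to 9.43%, against 3.13 to 3.38% in normal cells. The summed extraembryonic endoderm markers stood at 4029 to 4511 CPM in serum vesicles, while serum-free vesicles had 4849 to 5572 CPM, against 6231 to 6688 CPM in normal cells. Within that list Pou5f1, a pluripotency factor known in pXEN cells, averaged 1.25 ± 0.48 and 0.75 ± 0.82 CPM in serum and serum-free vesicles, against 118 ± 15.6 CPM in normal cells (SD, n = 3 each). Of the 7 trophoblast markers, Cdx2 averaged 24.9 ± 5.78 CPM in serum vesicles and 22.2 ± 4.43 CPM in serum-free vesicles and was at 0 in normal cells, while Hand1 and Prl3d1 were at 0 throughout. Cdx2 was the only marker of that list to average above 5 CPM in either kind of vesicle. In normal cells 1 other marker did so, and it was not above 5 CPM in the vesicles. The 7 markers together summed to 22.0 to 33.7 CPM in serum vesicles, while serum-free vesicles had 19.4 to 28.4 CPM, against 7.86 to 10.0 CPM in normal cells. The 9 fibroblast markers summed to 3.50 to 15.8 CPM in serum vesicles, while serum-free vesicles had 1.33 to 2.63 CPM, against 1.06 to 12.6 CPM in normal cells. Of these 9, 1 averaged above 5 CPM in serum vesicles, and Col1a2, Postn, Lum and Dcn were at 0 in all 3 groups. The part of these differences in the results below was not tested.

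**Figure D2:**
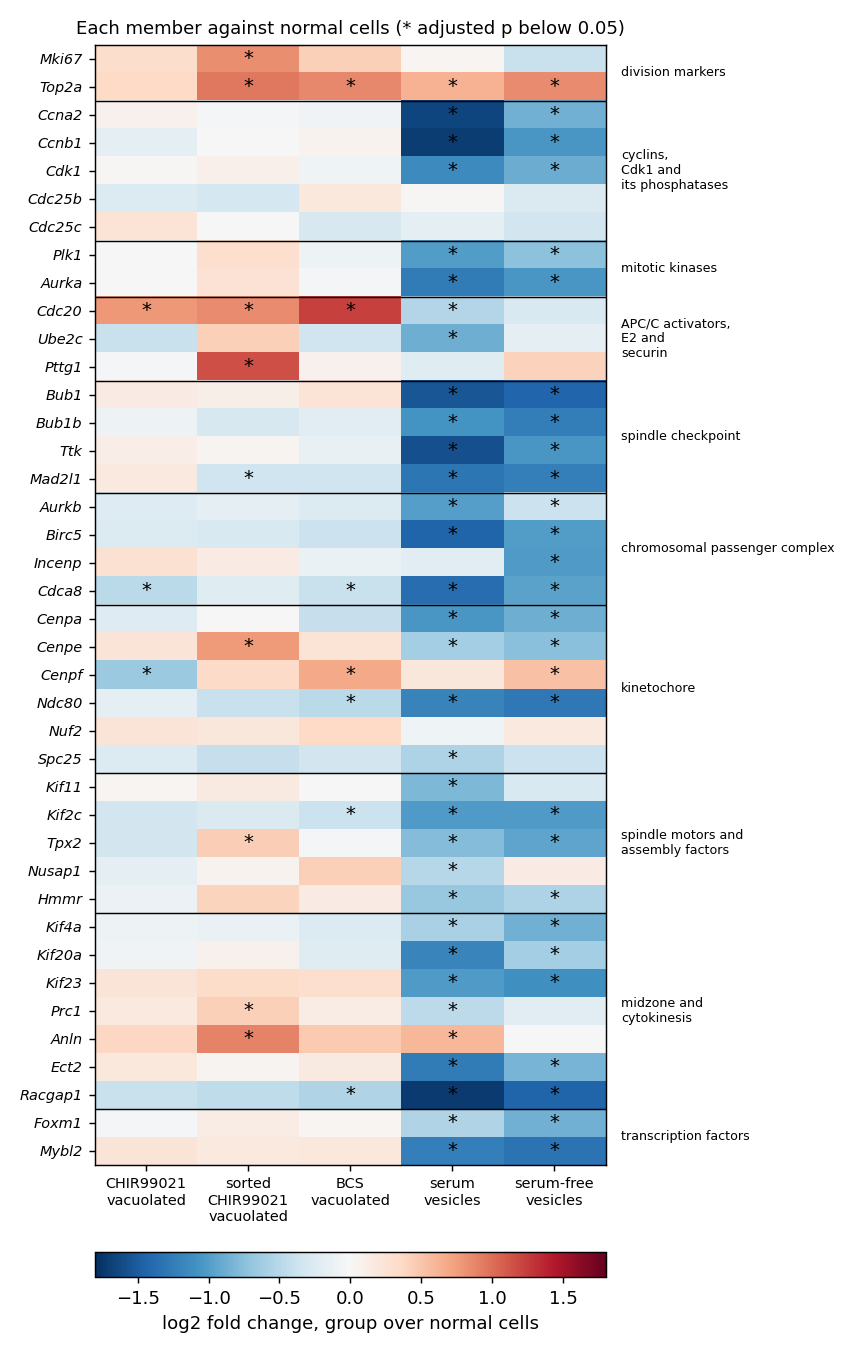
Log2 fold change of each of the 40 members (rows, grouped by role) in the 5 other groups over normal cells (columns). Stars mark an adjusted p below 0.05, and the columns of the vesicles hold 31 and 26 lower members.

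Among the cyclins and their kinase, Ccna2, Ccnb1 and Cdk1 fell in both kinds of vesicle, and the phosphatases that activate Cdk1, Cdc25b and Cdc25c, did not pass in any of the 5 comparisons with normal cells. Ccnb1 had 63.2, 73.3 and 52.5 CPM in serum vesicles and 104, 91.1 and 104 CPM in serum-free vesicles, against 197, 215 and 205 CPM in normal cells. Its 9 vacuolated libraries stood between 154 and 255 CPM. No vesicle library reached the normal or vacuolated range, and the fall was 3.25-fold in serum vesicles (log2 fold change -1.70 ± 0.15 SE, adjusted p = 9.63e-10) and 2.07-fold in serum-free vesicles (adjusted p = 1.68e-06). Ccna2, the cyclin of S phase and mitotic entry, had 53.5, 71.4 and 45.8 CPM in serum vesicles and 87.5, 99.8 and 109 CPM in serum-free vesicles, against 177, 187 and 177 CPM in normal cells. The groups did not overlap, and the fall was 3.15-fold (adjusted p = 1.00e-09) and 1.82-fold (adjusted p = 1.55e-05). Cdk1 averaged 59.8 ± 5.86 CPM in serum vesicles and 71.5 ± 7.99 CPM in serum-free vesicles, against 133 ± 9.59 CPM in normal cells, a fall of 2.22-fold and 1.86-fold. Cdc25b stayed between 4.49 and 6.39 CPM in the vesicles and between 4.54 and 6.71 CPM in normal cells, so its counts were few.

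Both members grouped under mitotic kinases, Plk1 (Polo-like kinase 1) and Aurka (Aurora A, which works at spindle poles), fell in both kinds of vesicle. Aurka had 40.7, 44.8 and 26.7 CPM in serum vesicles and 48.9, 43.5 and 38.7 CPM in serum-free vesicles, against 88.0, 94.7 and 88.9 CPM in normal cells. That is 2.40-fold lower in serum vesicles (adjusted p = 1.27e-07) and 2.08-fold lower in serum-free vesicles (adjusted p = 1.78e-06). Plk1 averaged 43.1 ± 8.39 CPM and 51.8 ± 4.42 CPM in serum and serum-free vesicles, against 86.7 ± 19.2 CPM in normal cells.

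All 4 spindle checkpoint genes fell in both kinds of vesicle. Bub1, a checkpoint kinase at kinetochores, had 85.3, 106 and 81.0 CPM in serum vesicles and 101, 105 and 87.5 CPM in serum-free vesicles, against 237, 277 and 278 CPM in normal cells. The highest vesicle library held less than any normal library, and the fall was 2.90-fold (adjusted p = 1.22e-09) and 2.69-fold (adjusted p = 4.13e-09). Ttk (Mps1), the kinase that starts the checkpoint signal, had 40.9, 51.8 and 32.9 CPM in serum vesicles and 59.8, 61 and 61.4 CPM in serum-free vesicles, against 116, 126 and 135 CPM in normal cells. It fell 2.98-fold and 2.07-fold. Mad2l1 (Mad2), which binds Cdc20 in the inhibitory complex, averaged 20.4 ± 2.14 and 21.4 ± 2.75 CPM in serum and serum-free vesicles, against 50.2 ± 1.22 CPM in normal cells. Bub1b (BubR1), of the same complex, fell 2.11-fold and 2.36-fold.

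Of the 3 members that act with or on the APC/C, Cdc20 and Ube2c fell in serum vesicles. Cdc20 had 41.5, 48.0 and 38.2 CPM in serum vesicles and 48.5, 50.3 and 54.1 CPM in serum-free vesicles, against 64.5, 61.3 and 59.4 CPM in normal cells. It was 1.45-fold lower in serum vesicles (adjusted p = 0.00103), and in serum-free vesicles its log2 fold change of -0.27 did not pass (adjusted p = 0.0682). It passed there with library sizes taken without the 2 most abundant genes (log2 fold change -0.33, adjusted p = 0.0275). Ube2c, the E2 enzyme that the ligase uses, had 19.5, 20.2 and 14.7 CPM in serum vesicles and 35.0, 31.8 and 23.2 CPM in serum-free vesicles, against 35.7, 26.1 and 39.0 CPM in normal cells. It was 1.84-fold lower in serum vesicles, and the serum-free libraries overlapped the normal ones. Pttg1 had 11.9, 15.8 and 7.37 CPM in serum vesicles and 22.0, 16.4 and 17.3 CPM in serum-free vesicles, against 16.0, 11.7 and 13.9 CPM in normal cells, and passed in neither comparison.

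The chromosomal passenger complex corrects attachments and then moves to the midzone, and 3 of its 4 members fell in serum vesicles and 4 of 4 in serum-free vesicles. Its kinase Aurkb (Aurora B) had 34.5, 37.3 and 32.0 CPM in serum vesicles and 54.5, 54.8 and 48.6 CPM in serum-free vesicles, against 72.4, 66.1 and 68.8 CPM in normal cells. The 3 groups did not overlap, and the fall was 1.99-fold (adjusted p = 1.30e-07) and 1.31-fold (adjusted p = 0.00574). Cdca8 (borealin) had 25.1, 28.5 and 24.6 CPM in serum vesicles and 30.7, 32.4 and 40.3 CPM in serum-free vesicles, against 71.0, 66.5 and 65.3 CPM in normal cells, and Birc5 (survivin) fell 2.72-fold and 2.01-fold. Incenp, the scaffold of the complex, had 16.4, 9.59 and 19.8 CPM in serum vesicles and 11.5, 7.52 and 6.86 CPM in serum-free vesicles, against 19.9, 13 and 18.3 CPM in normal cells. Only its serum-free vesicle libraries lay below the normal ones, where it fell 2.02-fold (adjusted p = 0.00148), and in serum vesicles it did not pass (adjusted p = 0.527).

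Of the 6 kinetochore members, 4 fell in serum vesicles, and in serum-free vesicles 3 fell and 1 rose. Ndc80, which grips the microtubule, had 20.5, 25.0 and 29.2 CPM in serum vesicles and 23.3, 23.5 and 23.4 CPM in serum-free vesicles, against 56.5, 60.4 and 54.1 CPM in normal cells. It fell 2.30-fold (adjusted p = 6.83e-07) and 2.43-fold (adjusted p = 2.64e-07). Of its partners in the same complex, Nuf2 passed in neither comparison. Spc25 fell 1.47-fold in serum vesicles (adjusted p = 0.0140), a call lost without serum vesicle replicate 1 or 3 (adjusted p = 0.0567 to 0.0887). In serum-free vesicles Spc25 passed as lower with library sizes taken without the 2 most abundant genes (adjusted p = 0.0389) and with the 2 groups alone (adjusted p = 0.0476), but not otherwise. Cenpa, the histone of centromeres, fell 2.06-fold and 1.83-fold. The centromere motor Cenpe fell 1.53-fold and 1.69-fold, but its serum vesicle and normal libraries overlapped. Its serum vesicle call was lost without serum vesicle replicate 1 or 2 or normal replicate 3 (adjusted p = 0.0835 to 0.125). That call was also lost with library sizes taken without the 2 most abundant genes (adjusted p = 0.0704) and with the 2 groups alone (adjusted p = 0.0580). Cenpf, a large protein of the outer kinetochore, had 36.0, 27.2 and 47.0 CPM in serum vesicles and 53.2, 38.2 and 45.4 CPM in serum-free vesicles, against 24.9, 32.6 and 37.0 CPM in normal cells. It rose 1.44-fold in serum-free vesicles (adjusted p = 0.0151), which was lost without normal replicate 1 or serum-free vesicle replicate 1 (adjusted p = 0.0793 to 0.108), and did not pass in serum vesicles.

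All 5 spindle motors and assembly factors fell in serum vesicles and 3 of the 5 in serum-free vesicles. Kif11 (Eg5), the motor that pushes spindle poles apart, had 110, 134 and 99.7 CPM in serum vesicles and 171, 164 and 162 CPM in serum-free vesicles, against 184, 209 and 210 CPM in normal cells. It was 1.76-fold lower in serum vesicles (adjusted p = 6.29e-06), and in serum-free vesicles 1.21-fold lower without passing (adjusted p = 0.0600). In serum-free vesicles Kif11 passed as lower with library sizes taken without the 2 most abundant genes (adjusted p = 0.0141) and with the 2 groups alone (adjusted p = 0.0399). It also passed there with DESeq2 (adjusted p = 0.0480) and without normal replicate 1 (adjusted p = 0.0487). Kif2c (MCAK), which takes microtubules apart, fell 2.03-fold in each, and Tpx2, the activator of Aurka, fell 1.72-fold and 1.92-fold. Nusap1, which bundles spindle microtubules, averaged 36.8 ± 3.61 CPM in serum vesicles and 58.4 ± 8.57 CPM in serum-free vesicles, against 52.6 ± 2.92 CPM in normal cells, and was lower in serum vesicles alone.

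Of the 7 midzone and cytokinesis genes, 6 fell in serum vesicles and 5 in serum-free vesicles. Racgap1, of the centralspindlin complex, had 38.4, 54.1 and 26.5 CPM in serum vesicles and 39.1, 43.2 and 63.1 CPM in serum-free vesicles, against 129, 142 and 126 CPM in normal cells. Its falls, 3.29-fold (adjusted p = 2.33e-08) and 2.71-fold (adjusted p = 3.21e-07), were the largest among the members in both comparisons. Kif23, its centralspindlin partner, fell 2.02-fold and 2.16-fold. Ect2, the exchange factor that activates RhoA at the cleavage furrow, had 67.9, 71.6 and 63.1 CPM in serum vesicles and 92.7, 91.6 and 88.4 CPM in serum-free vesicles, against 151, 168 and 166 CPM in normal cells. Its 3 groups did not overlap. Anln (anillin), the scaffold of the contractile ring, had 18.8, 17.5 and 26.7 CPM in serum vesicles and 16.6, 13.2 and 12 CPM in serum-free vesicles, against 14.2, 11.9 and 15.1 CPM in normal cells. It rose 1.51-fold in serum vesicles (adjusted p = 0.0223), a call lost without normal replicate 2 or serum vesicle replicate 3 (adjusted p = 0.103 to 0.146).

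Neither division marker fell in the vesicles. Mki67 (Ki-67), the antigen used to count cycling cells, had 64.6, 60.6 and 107 CPM in serum vesicles and 71.1, 51.3 and 49.8 CPM in serum-free vesicles, against 81.7, 60.6 and 83.0 CPM in normal cells. The groups overlapped, and neither difference passed (adjusted p = 0.907 and 0.107). In serum-free vesicles Mki67 passed as lower without the filter on low counts (adjusted p = 0.0312), without normal replicate 2 (adjusted p = 0.0443) and without serum-free vesicle replicate 1 (adjusted p = 0.0317). Top2a, which untangles sister chromatids, had 150, 154 and 136 CPM in serum vesicles and 201, 166 and 151 CPM in serum-free vesicles, against 99.1, 79.5 and 107 CPM in normal cells. All 6 vesicle libraries lay above the normal ones, and Top2a rose 1.54-fold (adjusted p = 0.000335) and 1.81-fold (adjusted p = 7.12e-06).

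Both transcription factors fell in both kinds of vesicle. Foxm1 had 21.3, 19.9 and 27.4 CPM in serum vesicles and 18.2, 14.4 and 21.6 CPM in serum-free vesicles, against 33.7, 31.0 and 34.5 CPM in normal cells, a fall of 1.46-fold (adjusted p = 0.00581) and 1.83-fold (adjusted p = 7.37e-05). Mybl2 had 29.2, 30.7 and 27.2 CPM in serum vesicles and 29.7, 29.8 and 21.8 CPM in serum-free vesicles, against 68.7, 71.3 and 64.4 CPM in normal cells. It fell 2.34-fold (adjusted p = 3.38e-08) and 2.52-fold (adjusted p = 9.21e-09). Neither factor passed in any comparison of vacuolated with normal cells.

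**Figure D3:**
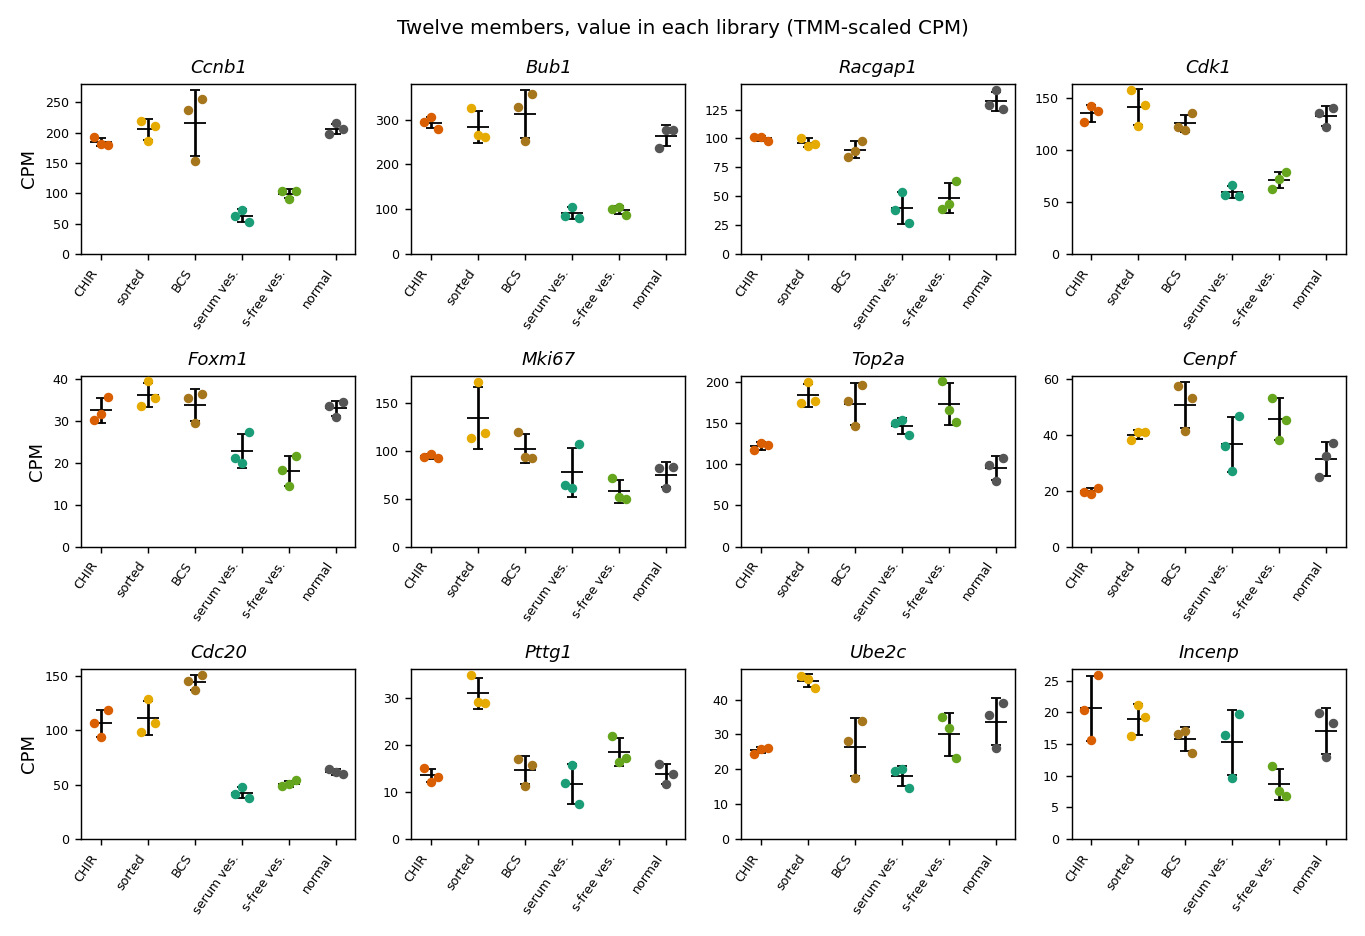
CPM of 12 members in every library (points) of the 6 groups, with mean and SD of 3 libraries. Ccnb1, Bub1, Racgap1, Cdk1 and Foxm1 are low in the vesicles, whereas Mki67, Top2a, Cenpf, Cdc20, Pttg1, Ube2c and Incenp show other orders of the groups.

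In CHIR99021-vacuolated cells 3 of the 40 members changed, a share no larger than that of all tested genes. Against normal cells 1 of the 40 was higher (4.49% of all tested genes) and 2 were lower (3.13% of all genes, and 7.62% in either direction), and the median log2 fold change was -0.013. Cdc20 had 107, 94.1 and 119 CPM in CHIR99021-vacuolated cells, against 64.5, 61.3 and 59.4 CPM in normal cells, and rose 1.73-fold (log2 fold change 0.79 ± 0.13 SE, adjusted p = 0.000175). Cenpf had 19.5, 18.8 and 21.2 CPM in CHIR99021-vacuolated cells, against 24.9, 32.6 and 37.0 CPM in normal cells, and fell 1.59-fold (adjusted p = 0.0259). Cdca8 had 40.9, 59.3 and 45.6 CPM in CHIR99021-vacuolated cells, against 71.0, 66.5 and 65.3 CPM in normal cells, and fell 1.39-fold (adjusted p = 0.0309). Libraries of the groups did not overlap for any of the 3 genes. The count was 1 without normal replicate 2 or 3 or CHIR99021-vacuolated replicate 1 or 3, and the Cdc20 call held in every such fit.

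In sorted CHIR99021-vacuolated cells 8 members were higher than in normal cells (14.4% of all genes) and 1 lower (11.5% of all genes, and 25.9% in either direction), with a median of 0.098. With RLE scaling 3 members were lower, and with library sizes taken without the 2 most abundant genes 4 were, beside the same number higher. Top2a had 175, 200 and 178 CPM in sorted cells, against 99.1, 79.5 and 107 CPM in normal cells, and rose 1.93-fold (adjusted p = 1.41e-05). Pttg1 had 34.9, 29.3 and 28.8 CPM in sorted cells, against 16.0, 11.7 and 13.9 CPM in normal cells, and rose 2.23-fold (adjusted p = 0.000269). Anln had 22.2, 29.9 and 24.5 CPM in sorted cells, against 14.2, 11.9 and 15.1 CPM in normal cells, and rose 1.85-fold (adjusted p = 0.00314). In each of these genes every sorted library exceeded every normal library.

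Mki67 had 113, 171 and 118 CPM in sorted cells, against 81.7, 60.6 and 83.0 CPM in normal cells, and rose 1.78-fold (adjusted p = 0.00458). Cdc20 rose 1.8-fold, to 98.4, 129 and 107 CPM in sorted cells. Cenpe rose 1.70-fold, a call lost without normal replicate 2 (adjusted p = 0.0597). Tpx2 and Prc1, the midzone bundler, rose 1.35- and 1.34-fold, calls that were lost in 4 and 2 of the 6 fits without 1 library. Mad2l1 had 40.1, 39.2 and 38.1 CPM in sorted cells, against 51.6, 49.8 and 49.3 CPM in normal cells. It fell 1.29-fold (adjusted p = 0.0478), and that call was lost in every fit without 1 library (adjusted p = 0.0816 to 0.127). Mitochondrial transcripts made up 6.76 to 8.91% of counts outside the 2 most abundant genes in sorted cells, against 3.13 to 3.38% in normal cells, and their part in these results was not tested.

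Bub1, Kif11 and Foxm1, all lower in serum vesicles, did not pass in any kind of vacuolated cell against normal cells. Bub1 had 294, 305 and 280 CPM in CHIR99021-vacuolated cells, 325, 266 and 261 CPM in sorted cells and 328, 253 and 356 CPM in BCS-vacuolated cells, against 237, 277 and 278 CPM in normal cells. Kif11 had 205, 205 and 207 CPM with CHIR99021, 261, 198 and 215 CPM in sorted cells and 207, 176 and 220 CPM with BCS, against 184, 209 and 210 CPM in normal cells. Foxm1 had 30.2, 31.7 and 35.9 CPM with CHIR99021, 33.7, 39.5 and 35.6 CPM in sorted cells and 35.6, 29.5 and 36.5 CPM with BCS, against 33.7, 31.0 and 34.5 CPM in normal cells. The libraries of each vacuolated group overlapped the normal libraries, except for Bub1 with CHIR99021, where they lay above (adjusted p = 0.584).

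In BCS-vacuolated cells 3 members were higher than in normal cells (11.2% of all genes) and 4 lower (9.51% of all genes, and 20.7% in either direction), with a median of -0.032. In either direction the share of members was no larger than that of all genes. Cdc20 had 146, 137 and 151 CPM in BCS-vacuolated cells, against 64.5, 61.3 and 59.4 CPM in normal cells, a rise of 2.34-fold (log2 fold change 1.23 ± 0.13 SE, adjusted p = 2.01e-07). Top2a had 177, 147 and 197 CPM in BCS-vacuolated cells, against 99.1, 79.5 and 107 CPM in normal cells, a rise of 1.82-fold (adjusted p = 6.53e-05). Cenpf had 57.4, 41.4 and 53.4 CPM in BCS-vacuolated cells, against 24.9, 32.6 and 37.0 CPM in normal cells, a rise of 1.60-fold (adjusted p = 0.00872). The BCS libraries of all 3 genes lay above the normal ones. Racgap1, Ndc80, Cdca8 and Kif2c were 1.31- to 1.46-fold lower (adjusted p = 0.0270 to 0.0371). The count of 7 was 2 without normal replicate 1 or BCS replicate 1, 3 without normal replicate 2 and 4 without normal replicate 3, and the calls of Cdc20 and Top2a held in each of them. The summed extraembryonic endoderm markers stood at 8952 to 11809 CPM with BCS, against 6231 to 6688 CPM in normal cells. The summed trophoblast markers stood at 5.25 to 7.11 CPM with BCS, against 7.86 to 10.0 CPM in normal cells, with Cdx2, Hand1 and Prl3d1 at 0 in both groups. The part of these differences in the BCS results was not tested.

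Serum-free vesicles held more of these transcripts than serum vesicles. Of the members, 11 were higher in serum-free vesicles (12.9% of all genes) and 2 lower (11.5% of all genes, and 24.4% in either direction), with a median log2 fold change of 0.22 against 0.017 over all genes. With library sizes taken without the 2 most abundant genes the median of all genes was -0.16 and that of the members 0.053, and 7 members were higher and 4 lower. The rise held Ccna2 (1.73-fold, adjusted p = 0.000462), Ube2c (1.63-fold, adjusted p = 0.0153), Nusap1 (1.58-fold), Ccnb1 (1.57-fold, adjusted p = 0.00297), Pttg1 (1.54-fold), Aurkb (1.52-fold), Kif20a (1.49-fold), Kif11 (1.45-fold), Ttk (1.44-fold), Ect2 (1.34-fold) and Cdca8 (1.32-fold). These belong to 6 of the roles, from the cyclins to cytokinesis. Incenp was 1.78-fold lower in serum-free vesicles (adjusted p = 0.0214), although its libraries overlapped, and Anln 1.51-fold lower (adjusted p = 0.0481). The count of 13 was 8 without serum vesicle replicate 1 and 6 without serum vesicle replicate 3. Of the 13 calls, 6 held in every alternative fit, those of Ccna2, Ccnb1, Nusap1, Aurkb, Kif20a and Kif11. The calls of Ube2c and Pttg1, which act with or on the APC/C, and of the checkpoint kinase Ttk were each lost in some fits. The breadth over 6 roles thus rests partly on calls that did not hold.

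**Figure D4:**
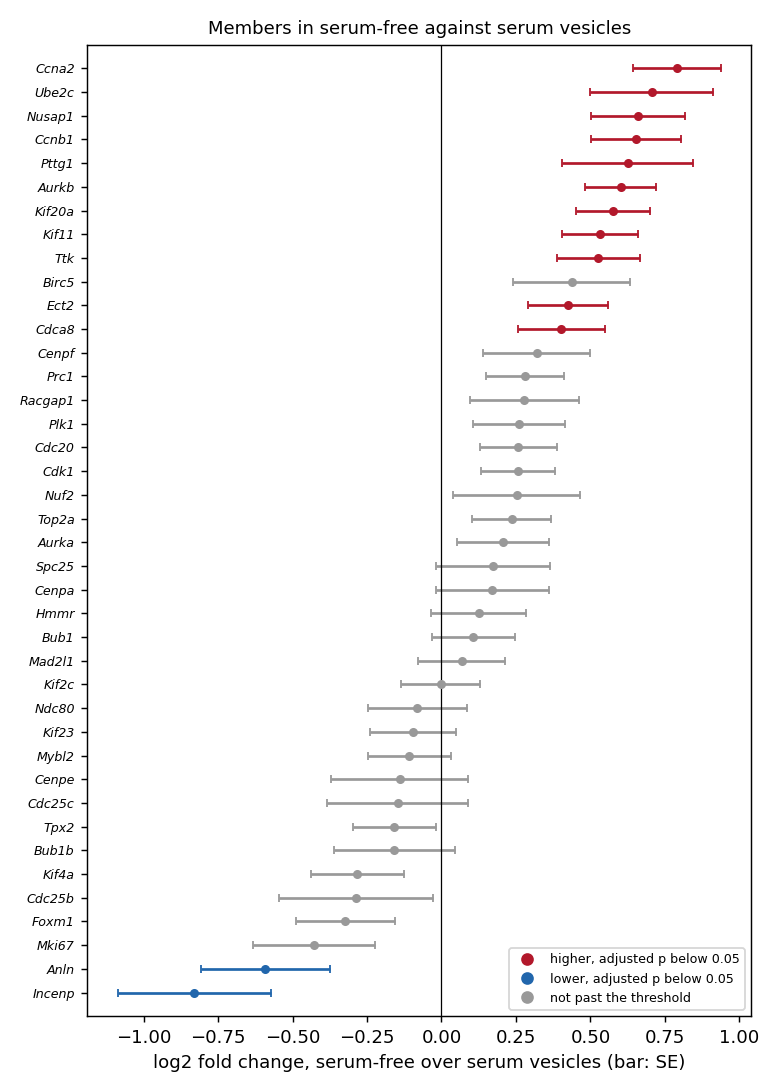
Log2 fold change of each member in serum-free over serum vesicles, with its SE, ordered by size. The 11 red points passed as higher and the 2 blue points, Incenp and Anln, as lower.

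Sorting went with a small set of rises among CHIR99021-vacuolated cells. Against unsorted cells 6 members were higher in sorted cells (6.69% of all genes) and 1 lower (5.05% of all genes, and 11.7% in either direction). Pttg1 had 34.9, 29.3 and 28.8 CPM in sorted cells, against 15.1, 12.2 and 13.2 CPM in unsorted cells, 2.28-fold higher (adjusted p = 0.000457). Cenpf had 38.3, 41.0 and 41.1 CPM in sorted cells, against 19.5, 18.8 and 21.2 CPM in unsorted cells, 2.03-fold higher (adjusted p = 0.000579). Ube2c had 46.8, 46.0 and 43.3 CPM in sorted cells, against 24.5, 25.8 and 26.1 CPM in unsorted cells, 1.78-fold higher (adjusted p = 0.00651). The sorted libraries were above the unsorted ones for all 3. Tpx2, Top2a and Hmmr, a spindle-pole protein, were 1.70-, 1.51- and 1.41-fold higher, and Mad2l1 was 1.45-fold lower (adjusted p = 0.00984). The Hmmr call was lost in 5 of the 6 fits without 1 library (adjusted p = 0.0542 to 0.166). Mitochondrial transcripts made up 6.76 to 8.91% of counts outside the 2 most abundant genes in sorted cells, against 2.88 to 4.08% in unsorted cells. The summed extraembryonic endoderm markers stood at 8248 to 10676 CPM in sorted cells, against 6327 to 7854 CPM in unsorted cells. The part of both in these results was not tested.

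CHIR99021-vacuolated and BCS-vacuolated cells differed in 5 members, 1 higher (5.83% of all genes) and 4 lower (7.40% of all genes, and 13.2% in either direction) with CHIR99021. In either direction this share of the members was no larger than that of all genes. Cenpf had 19.5, 18.8 and 21.2 CPM with CHIR99021, against 57.4, 41.4 and 53.4 CPM with BCS, 2.55-fold lower (log2 fold change -1.35 ± 0.18 SE, adjusted p = 2.39e-05). Nusap1 had 50.3, 43.1 and 46.0 CPM with CHIR99021, against 77.4, 55.9 and 78.9 CPM with BCS, 1.52-fold lower (adjusted p = 0.0108). Mad2l1 had 56.7, 58.1 and 54.9 CPM with CHIR99021, against 39.6, 33.0 and 44.6 CPM with BCS, 1.45-fold higher (adjusted p = 0.00919). For these 3 the groups did not overlap. Top2a and Cdc20 were 1.42- and 1.36-fold lower with CHIR99021. The count of 5 was 3 without CHIR99021-vacuolated replicate 1 or 2 and 2 without BCS replicate 1 or 3, while the calls of Cenpf and Mad2l1 held in all fits.

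Serum vesicles were also low in these transcripts beside CHIR99021-vacuolated cells. Of the members, 28 were lower in serum vesicles (27.6% of all genes) and 1 higher (30.3% of all genes, and 58.0% in either direction), and the median log2 fold change was -0.83. The largest falls were those of Ccna2 (3.32-fold, adjusted p = 7.23e-10), Ttk (3.23-fold, adjusted p = 3.72e-10) and Bub1 (3.22-fold, adjusted p = 4.07e-10). Cdc20 fell 2.49-fold, to 41.5, 48.0 and 38.2 CPM in serum vesicles, against 107, 94.1 and 119 CPM in CHIR99021-vacuolated cells (adjusted p = 5.17e-09). Cenpf was the member that was higher, 1.84-fold (adjusted p = 0.000306). With library sizes taken without the 2 most abundant genes the median of all genes was 0.23 and that of the members -0.66.

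The wider cell cycle was read from lists of other genes, whose counts stand against 28.8% of all genes lower and 31.7% higher in serum vesicles, and 27.5% lower and 30.2% higher in serum-free vesicles. Of 84 further mitosis genes tested, 53 fell and 6 rose in serum vesicles against normal cells, and 40 fell and 12 rose in serum-free vesicles, with medians of -0.69 and -0.36. Melk, a kinase of dividing cells, fell 3.13-fold in serum vesicles (adjusted p = 1.84e-10), and Ube2s, the second E2 enzyme of the APC/C, fell 2.75-fold there and 2.55-fold in serum-free vesicles. Psrc1 and Gtse1, both microtubule-associated proteins, fell 6.34-fold and 3.31-fold in serum-free vesicles. In sorted cells 18 of the 84 rose and 4 fell against normal cells (14.4% and 11.5% of all genes). Among those that rose were Zw10 (2.86-fold), Ckap2 (2.36-fold) and Smc4, a condensin subunit (2.14-fold). In BCS-vacuolated cells 10 rose and 5 fell (11.2% and 9.51% of all genes). In CHIR99021-vacuolated cells 4 rose and 2 fell (4.49% and 3.13% of all genes), so the counts of both groups lay near those shares. The condensin subunit Ncapd2 and the kinesin Kif18b rose in both, by 2.93- and 2.36-fold with BCS and by 2.00- and 2.02-fold with CHIR99021. Serum-free vesicles had 15 of the 84 higher and 2 lower than serum vesicles (12.9% and 11.5% of all genes). With library sizes taken without the 2 most abundant genes, 12 were higher and 9 lower, where 790 of all 11503 genes were higher and 2112 lower.

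Of 51 G1/S and replication genes, 36 fell and 3 rose in serum vesicles against normal cells, and 31 fell and 5 rose in serum-free vesicles. Ccne1, the cyclin of S phase entry, averaged 13.5 CPM in serum vesicles and 9.08 CPM in serum-free vesicles, against 67.4 CPM in normal cells. It fell 5.10-fold (adjusted p = 6.45e-11) and 7.41-fold (adjusted p = 2.08e-12). Rrm2 and Rrm1, the subunits of ribonucleotide reductase, fell 3.83- and 2.65-fold in serum vesicles. In sorted cells 16 of the 51 fell and 1 rose against normal cells (11.5% and 14.4% of all genes). Ung, a DNA glycosylase, was 2.65-fold lower and the helicase subunit Mcm2 1.65-fold lower. In BCS-vacuolated cells 8 fell and 1 rose (9.51% and 11.2% of all genes), and in CHIR99021-vacuolated cells 4 fell and 1 rose (3.13% and 4.49% of all genes). The gene that rose was Uhrf1, a factor that maintains DNA methylation, by 2.71-fold with BCS and 3.21-fold with CHIR99021 (adjusted p = 8.50e-07). Between the vesicles, 17 of the 51 were higher and 3 lower without serum (12.9% and 11.5% of all genes), but 8 and 8 with library sizes taken without the 2 most abundant genes.

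Of 15 APC/C subunits, 6 fell and 2 rose in serum vesicles against normal cells, and 5 fell and 2 rose in serum-free vesicles, with Anapc15 2.85- and 2.28-fold lower. In sorted cells 1 rose and 1 fell (14.4% and 11.5% of all genes), and in BCS-vacuolated cells 2 fell (9.51% of all genes). Of 12 DREAM subunits, 4 fell and 3 rose in serum vesicles and 4 fell and 2 rose in serum-free vesicles. Tfdp1, the partner of E2F factors, was 2.67-fold and 2.44-fold lower, and the histone-binding subunit Rbbp4 2.37-fold and 1.87-fold lower.

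Genes that restrain the cycle were read from another list. Of 20 CDK inhibitors and genes of cell cycle exit, 12 rose and 3 fell in serum vesicles against normal cells, 9 rose and 5 fell in serum-free vesicles, 8 rose and 1 fell in sorted cells, 6 rose in BCS-vacuolated cells, and 3 rose and 1 fell in CHIR99021-vacuolated cells. Of all tested genes, 31.7%, 30.2%, 14.4%, 11.2% and 4.49% were higher in these 5 comparisons, and 28.8%, 27.5%, 11.5%, 9.51% and 3.13% were lower. Btg1, an antiproliferative factor, rose 4.80-fold in serum vesicles (adjusted p = 1.25e-11), 6.58-fold in serum-free vesicles and 2.93-fold in sorted cells. Ccng2 (cyclin G2) averaged 25.2 CPM in serum vesicles and 30.7 CPM in serum-free vesicles, against 4.50 CPM in normal cells.

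The Cip/Kip inhibitors went different ways. Cdkn1b (p27) rose in all 5 comparisons with normal cells, by 1.47-fold with CHIR99021, 1.5-fold in sorted cells, 1.67-fold with BCS, 1.65-fold in serum vesicles and 2.01-fold in serum-free vesicles. Cdkn1a (p21) averaged 75.5 ± 10.7, 72.4 ± 7.60 and 75.1 ± 17.4 CPM in the CHIR99021-vacuolated, sorted and BCS-vacuolated cells, 52.2 ± 7.35 CPM in serum vesicles and 12.8 ± 5.39 CPM in serum-free vesicles, against 39.5 ± 6.36 CPM in normal cells (SD, n = 3 each). It rose 1.84- to 1.92-fold in the vacuolated cells, did not pass in serum vesicles (adjusted p = 0.0918) and fell 3.01-fold in serum-free vesicles (adjusted p = 2.90e-06). Between the vesicles it was 4-fold lower without serum (adjusted p = 3.30e-06). Cdkn1c (p57) averaged 6.82 ± 0.88 CPM in serum vesicles and 4.74 ± 3.21 CPM in serum-free vesicles, against 114 ± 15.5 CPM in normal cells, 16.9- and 22.5-fold lower. The Cdkn1c difference was 3.58-fold with CHIR99021 and 3.40-fold in sorted cells, both lower, and did not pass with BCS (adjusted p = 0.240). Cdkn1b and Cdkn1c did not pass between the vesicles (adjusted p = 0.190 and 0.561). None of the 3 passed between sorted and unsorted CHIR99021-vacuolated cells (adjusted p = 0.893 to 0.952). Against BCS-vacuolated cells, CHIR99021-vacuolated cells differed in Cdkn1c alone of the 3, 2.43-fold lower (adjusted p = 0.0179). Serum vesicles had less Cdkn1a (1.45-fold, adjusted p = 0.0280) and less Cdkn1c (4.73-fold, adjusted p = 0.000196) than CHIR99021-vacuolated cells.

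**Figure D5:**
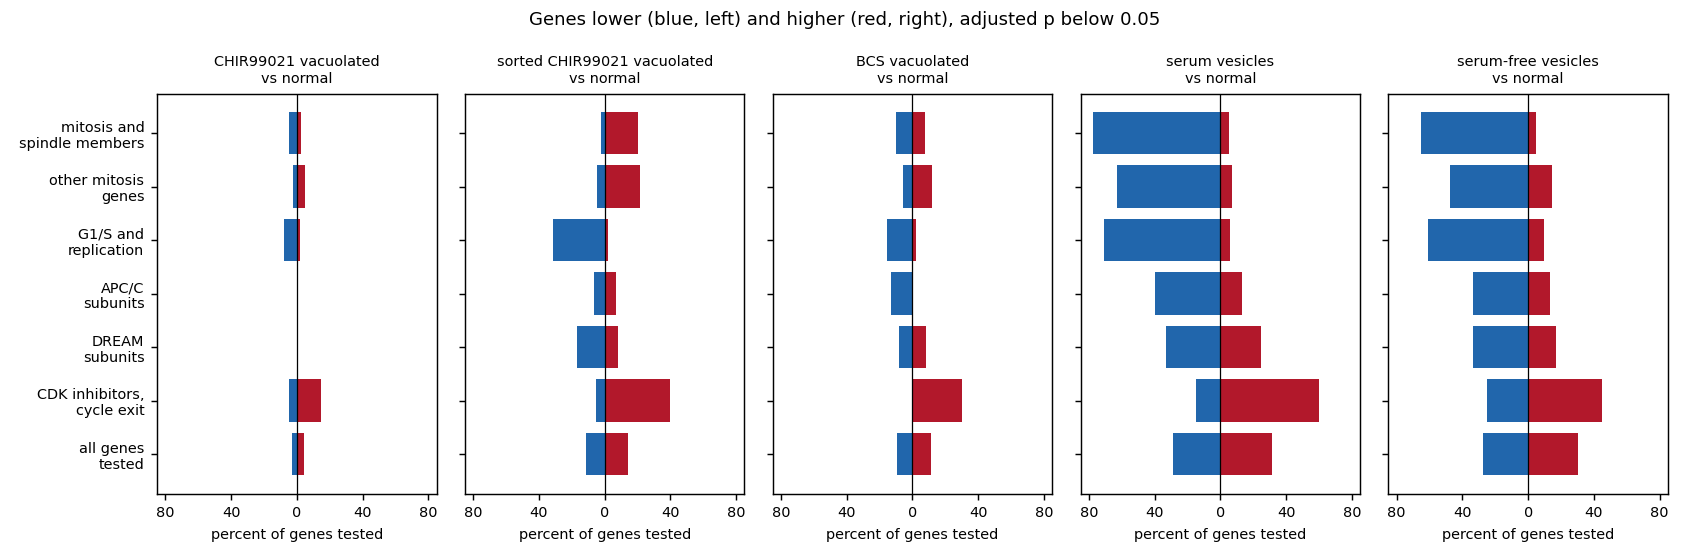
Percent of tested genes of each list that were lower (left, blue) or higher (right, red) than in normal cells at adjusted p below 0.05, for the 5 other groups, with all 11503 tested genes as the bottom row. In the vesicles the lists of mitosis and replication genes lean left and the list of CDK inhibitors leans right, with 31 of 40 members lower in serum vesicles.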

How the data were processed

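RNA was sequenced from 18 libraries in 6 groups of 3, with ribosomal RNA removed and a directional kit, per the labels' protocols. The submitters' processing notes name bcl2fastq, Trimmomatic 0.38, STAR 2.6.1 and the rat build rn6. The deposited counts are whole reads per gene in unstranded and strand-specific columns, and column 4, strand-specific, was used. Reads shared by near-identical genes could be counted elsewhere or lost.

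Genes were kept with edgeR's filterByExpr at a minimum count of 10. Counts were scaled by TMM and tested with the quasi-likelihood test of edgeR 4.0.16 (limma 3.58.1, R 4.3.3), with 1 mean per group over all 18 libraries. P-values were adjusted by Benjamini-Hochberg over all 11503 genes tested, at a threshold of 0.05. The procedure was tested on simulated counts of serum vesicles against normal cells. It called 24% of 50 genes changed 1.5-fold, 86% of 50 changed 2-fold and 10 of 11303 unchanged genes. Changes near 1.5-fold were therefore often missed, and a gene that did not pass may still differ by that much. Levels are TMM-scaled CPM, with mean ± SD over 3 libraries.

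The members and lists were chosen with earlier results of these data known. Values per library are given for Mki67, Ccnb1 and Foxm1, for the member of each role with the highest mean CPM, and for the 3 largest changes that passed in each comparison. Values of Cdk1, Plk1 and other members beyond these are given by role. From each companion list at most the 3 genes with the smallest adjusted p in a comparison are named, with Cdkn1a, Cdkn1b and Cdkn1c. Alternatives were RLE scaling, library sizes without the 2 most abundant genes, DESeq2 1.42.0, no count filter, unstranded counts, the 2 groups alone, a replicate block, passage as a covariate, and leaving out each library. In every comparison except BCS-vacuolated against normal cells, at least 1 pair of same-numbered replicates had a negative correlation. In that comparison the correlations of same-numbered replicates were 0.0405 to 0.0846.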

Additional observations from a re-analysis of the deposited data

Results flagged for a closer look

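Cenpf went opposite ways in CHIR99021-vacuolated and BCS-vacuolated cells. Against normal cells its log2 fold change was -0.67 with CHIR99021 and 0.68 with BCS, and the difference between them was -1.35 (edgeR, adjusted p = 2.39e-05). All 3 CHIR99021 libraries lay below the normal libraries and all 3 BCS libraries above them. The call against normal cells was lost in 5 of 6 fits without 1 library with CHIR99021 (adjusted p = 0.0553 to 0.160) and in 2 of 6 with BCS (adjusted p = 0.0637 to 0.0662), while the difference between them held in every alternative.

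Cdc20 went opposite ways in serum vesicles and CHIR99021-vacuolated cells. Its log2 fold change against normal cells was -0.53 in serum vesicles and 0.79 with CHIR99021, a difference of -1.32 (edgeR, adjusted p = 5.17e-09). All 3 serum vesicle libraries lay below the normal libraries and all 3 CHIR99021 libraries above them.

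Counts on the strand opposite to the gene, which the comparisons reported used only in the alternative with unstranded counts, were a larger share in vesicles for a pair of members. A share can also rise because counts on the gene's own strand fell, as they did for both genes. For Kif20a the share was 10.9% in serum vesicles (124 counts) and 8.87% in serum-free vesicles (180 counts), against 3.65% in normal cells (83 counts). Library by library the range was 10.0 to 12.6% with serum and 8.57 to 9.82% without it, against 3.16 to 4.48% in normal cells. For Ccna2 the share was 1.55% in serum-free vesicles (35 counts), against 0.603% in normal cells (19 counts). On its own strand Kif20a had 1012 counts over the serum vesicle libraries, against 2192 over the normal libraries.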

How the results depend on the processing

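No result changed direction with a call under any alternative. Of the 40 members, 30 of 33 calls in serum vesicles and 27 of 28 in serum-free vesicles against normal cells held under every alternative, but 1 of 3 with CHIR99021, 5 of 9 in sorted cells, 2 of 7 with BCS, 6 of 13 between the vesicles, 6 of 7 between sorted and unsorted cells, 2 of 5 between CHIR99021 and BCS and 26 of 29 between serum vesicles and CHIR99021. Fitted with the 2 groups alone, the counts of members called were 8 with CHIR99021 and 16 in sorted cells against normal cells, and 6 between the vesicles. With library sizes taken without the 2 most abundant genes, the median log2 fold change was -0.072 with CHIR99021 and -0.91 in serum-free vesicles against normal cells, 0.053 between the vesicles, -0.011 between CHIR99021 and BCS, and -0.66 between serum vesicles and CHIR99021. That scaling gave 440 higher and 527 lower genes with CHIR99021 against normal cells, beside 516 and 360, and 790 higher and 2112 lower between the vesicles, beside 1482 and 1323. With passage as a covariate the median in serum-free vesicles was -0.81. The cause of these shifts was not tested.

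Leaving out 1 library at a time gave counts of 1 to 2 with CHIR99021 and 2 to 6 with BCS against normal cells, 6 to 16 between the vesicles, and 2 to 6 between CHIR99021 and BCS. The medians ran from -0.052 to 0.017 with CHIR99021, from -0.87 to -0.77 in serum-free vesicles, from 0.098 to 0.26 between the vesicles, and from -0.055 to 0.085 between CHIR99021 and BCS. The main fit did not pair the samples by replicate number. Passages in order of replicate number were close in some groups, with 37, 41 and 51 with CHIR99021 and 37, 40 and 51 in normal cells. With the replicate block the counts were 3, 9, 7, 33 and 28 with CHIR99021, in sorted cells, with BCS, in serum vesicles and in serum-free vesicles against normal cells, and 11 between the vesicles. In BCS-vacuolated against normal cells every library correlated best with its own number, a hint from the data and not from the design. Cdc25b had few counts, but its spread within groups was not the widest. Its SD was 4.82 to 19.4% of its group means, and that of Racgap1, with more counts, 1.95 to 34.9%.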
